A study of Mus musculus with 98 samples.

Results

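Transcripts of 10 circadian clock and clock output genes were followed through all libraries of the series: Dbp, Per1, Per2, Per3, Nr1d1, Nr1d2, Ciart, Cry1, Cry2 and Tef. They were chosen by name, with earlier results of these data known. All 10 were found in each of the 6 count tables, which list 25239 genes for neurons that received a virus and 55367 genes in the other tables. All 10 also passed the filter on low counts everywhere, so each was tested in all 27 comparisons.

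In the mammalian clock the activators CLOCK and BMAL1 (gene symbol Arntl) bind E-boxes and switch on their own inhibitors, the Per and Cry genes, so that transcription rises and falls over the day. CLOCK and BMAL1 also switch on Nr1d1 and Nr1d2, which encode the REV-ERB repressors of Arntl, and Ciart, which encodes the repressor CHRONO. Dbp and Tef encode PAR bZIP activators that bind D-boxes and carry the rhythm to output genes. In brain these genes cycle with the time of day, and Per1 is in addition known as a gene that neuronal activity induces through cAMP response elements (CRE).

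The samples compare hippocampal neurons and the hippocampus of mice with and without extra ACSS2, which turns acetate into acetyl-CoA. Primary embryonic hippocampal neurons of CD1 mice received a PhP.eB virus on day 5 of culture, either one labelled upACSS2 or an empty vector, and 48 hours later, on day 7, tau from human Alzheimer's disease material (hAD-tau) or PBS. Neurons were taken on day 9 or day 21 in 8 groups of 3 libraries, and 4 further groups of 3 from day 21 are labelled as stimulated. For the stimulated groups the labels give neither the agent nor its duration. From a culture that got no virus, day 21 libraries are 4 for hAD-tau and 3 for PBS. Male mice received either virus by injection behind the eye. The aged C57BL6 mice were 22 to 23 months old, 2 months after the virus, with 12 mice per group, and were killed 30 minutes after recall of a remote context. The C57BL6 mice of 10 months, with 6 upACSS2 and 5 vector mice, were killed 2 weeks after the virus and 30 minutes after fear conditioning. PS19 mice express mutant human tau from a transgene driven by the Prnp promoter. They were 3.5 months old at 1 month after the virus and 8.5 to 9 months old at 6 months, with 5 mice in each of the 4 groups, and were killed 30 minutes after contextual recall. The promoter that drives Acss2 in the virus and the clock time of dissection are not given in the labels. The aged mice and the 1-month upACSS2 group of PS19 mice are labelled as whole hippocampus and all other mice as dorsal hippocampus, so at 1 month tissue and virus cannot be told apart. Groups were taken from the sample titles, because the treatment entry contradicts the title in several groups.

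Levels are given as CPM, counts relative to the library size after TMM scaling within a table, and fold changes as log2 values with their standard error (SE). A member is said to rise, fall or be called where the adjusted p of edgeR's quasi-likelihood test, over all genes tested, was below 0.05. Lack of overlap between groups is given as a description only. The share of all genes without overlap was counted just for the replicate sets of aged mice. Libraries held between 5075099 and 39985460 counts in all. In the neurons Acss2 rose in all 6 comparisons with vector, by 5.21 to 6.49 on the log2 scale. In the mice Acss2 was not called. Its levels overlapped between the virus groups in the aged and the PS19 mice, so those groups are named as labelled. At 10 months they did not overlap. By point estimate Acss2 was higher with upACSS2 in each mouse comparison. The log2 values were 0.2 in aged mice and 0.31 at 10 months (unadjusted p in edgeR = 0.000274 and 0.000659). In PS19 mice they were 3.53 at 1 month and 1.19 at 6 months (unadjusted p in edgeR = 2.34e-05 and 0.0595). Neuronal markers (Rbfox3, Snap25, Syt1, Camk2a and Gad1, summed) lay at 2801 to 6498 CPM in neurons with a virus, beside 2099 to 18290 CPM for 6 astrocyte markers and 2.15 to 8.61 CPM for 5 microglia markers. The labels do not say whether libraries of a group came from separate cultures, so p-values from the neurons measure only the spread between these libraries.

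Sequence upstream of the start is shown for the members on which the neuron results turn, Per1 and Ciart, and for Per3, the member whose window held the D-box searched for. RefSeq windows of 250 bases before to 50 bases after a start (build GRCm38.p6) matched 9 of the 10 members, in 11 windows, and Per2 had no entry. The windows were searched on both strands for the E-box CACGTG, the D-box TTATGTAA, the full CRE TGACGTCA and its half-site TGACG, which the full site contains. Among all 32851 windows of this length, 7.15% held the E-box, 0.9376% the D-box, 20.81% the half-site and 1.79% the full CRE. The E-box was found in 4 members: Ciart, Per1, Cry1 and Tef. In Ciart it occurred 3 times, at 116, 58 and 44 bases before the start. Per3 was the only member with the D-box, at 205 and 158 bases before the start. The half-site lay 246 and 132 bases before the starts of the 2 Per1 windows, and also in Cry1 and Cry2, while the full CRE was in none. Below, the 250 bases before each start are printed 5′ to 3′, with capitals marking the E-boxes in Ciart, the D-boxes in Per3, and the E-box and half-sites in Per1. Ciart is at chr3:95882229-95882478 on the minus strand, Per3 at chr4:151044666-151044915 on the minus strand, and the Per1 windows are at chr11:69098699-69098948 and chr11:69099902-69100151 on the plus strand. A match describes the letters in the window and does not show that a factor binds there.
Per1, first window: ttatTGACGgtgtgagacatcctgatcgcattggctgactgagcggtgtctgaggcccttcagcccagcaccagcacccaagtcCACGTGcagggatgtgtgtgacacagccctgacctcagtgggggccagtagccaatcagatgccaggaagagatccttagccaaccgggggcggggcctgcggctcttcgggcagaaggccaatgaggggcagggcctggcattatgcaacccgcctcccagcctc
Per1, second window: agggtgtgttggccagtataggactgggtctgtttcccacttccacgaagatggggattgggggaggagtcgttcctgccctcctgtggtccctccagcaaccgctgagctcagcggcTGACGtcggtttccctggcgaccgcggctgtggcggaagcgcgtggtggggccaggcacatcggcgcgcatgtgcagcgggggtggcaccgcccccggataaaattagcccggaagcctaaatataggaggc
Ciart: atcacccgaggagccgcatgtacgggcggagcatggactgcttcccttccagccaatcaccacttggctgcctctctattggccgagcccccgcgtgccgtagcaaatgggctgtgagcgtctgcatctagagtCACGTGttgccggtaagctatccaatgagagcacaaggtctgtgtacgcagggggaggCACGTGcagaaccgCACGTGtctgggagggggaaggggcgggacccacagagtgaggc
Per3: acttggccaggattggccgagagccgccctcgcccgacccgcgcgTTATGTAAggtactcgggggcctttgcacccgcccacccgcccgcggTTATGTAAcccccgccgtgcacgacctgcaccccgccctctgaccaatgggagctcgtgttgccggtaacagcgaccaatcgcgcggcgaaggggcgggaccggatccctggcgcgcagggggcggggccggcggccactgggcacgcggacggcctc

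Per length of transcript, Tef or Cry2 was the most abundant of the 10 genes in unstimulated neurons with a virus, and Tef in the mice. In 3 of the 4 unstimulated day 21 groups Cry2 ranked above Tef, by less than the spread of either in the upACSS2 with PBS and vector with tau groups. In day 9 neurons with vector and PBS, Tef stood at 17.3 ± 0.538 CPM per kb of exon (SD, n = 3) and Cry2 at 16.6 ± 0.853, which overlap within their spread. Nr1d1 (6.52 ± 0.499) and Per1 (6.09 ± 0.444) followed, again within a spread of each other, and Dbp (1.92 ± 0.189), Ciart (1.89 ± 0.238) and Per3 (0.857 ± 0.0604) came last. The order differed in the hippocampus of aged vector mice. There Tef reached 46.0 ± 2.35 CPM per kb (SD, n = 12), and Nr1d2 (19.3 ± 2.46), Cry2 (18.3 ± 0.938), Nr1d1 (18.2 ± 3.82) and Dbp (16.7 ± 2.2) formed a second tier whose neighbours lay within a spread of each other. Dbp, the output activator, had rank 8 of 10 in these neurons and rank 5 in the aged hippocampus, in tables that were scaled separately. Exons of Dbp (chr7:45705088-45710203, GRCm38, plus strand) share 539 bases, 18.01% of its exon length, with Sphk2 on the opposite strand. Those of Nr1d1 (chr11:98767932-98775333, minus strand) share 263 bases, 8.547%, with Thra. Whether counting used the strand is not stated, so reads in those stretches cannot be assigned to one gene.

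Between day 9 and day 21 of culture most of the 10 transcripts rose in the neurons, and none fell. Dbp rose in all 4 arms and had the largest fold change of the 10 in each. Per3, a period gene, Nr1d1 and Nr1d2, the REV-ERB repressors, and Cry1, a PER partner that inhibits CLOCK and BMAL1, also rose in all 4 arms. Per2 rose in none. The counts were 6 of 10 with vector and PBS, 9 with vector and tau, 6 with upACSS2 and PBS, and 8 with upACSS2 and tau. Against these stand 57.7%, 52.6%, 54.3% and 53.6% of all 14863 genes called in either direction. The number of members called was near this background in the PBS arms. In the tau arms it was above it, and whether by more than chance was not tested. The direction was one-sided among the members, with medians of 0.34, 0.64, 0.48 and 0.70 on the log2 scale, while the median over all genes tested was 0.054, 0.045, 0.032 and 0.01.

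Dbp showed the size of the change. In neurons with vector and PBS its 3 libraries held 5.83, 6.27 and 5.15 CPM on day 9 and 12.4, 17.1 and 31.3 CPM on day 21. Every day 21 library lay above every day 9 library, but the day 21 libraries differed among themselves by more than 2-fold. The fold change was 1.82 ± 0.24 (log2, SE; adjusted p = 2.03e-06), or 3.54-fold, against 3.89-fold with vector and tau, 2.77-fold with upACSS2 and PBS and 2.90-fold with upACSS2 and tau. Over the 4 arms the 12 libraries of day 9 ran from 5.15 to 7.31 CPM and the 12 of day 21 from 12.4 to 31.3 CPM. The highest library, vector with PBS replicate 3, also held the most astrocyte marker counts, 18290 CPM against 3209 to 10240 CPM in the other day 21 libraries. Leaving out any of the 24 libraries kept the Dbp call in each arm, with a lowest log2 value of 1.22.

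**Figure D1:**
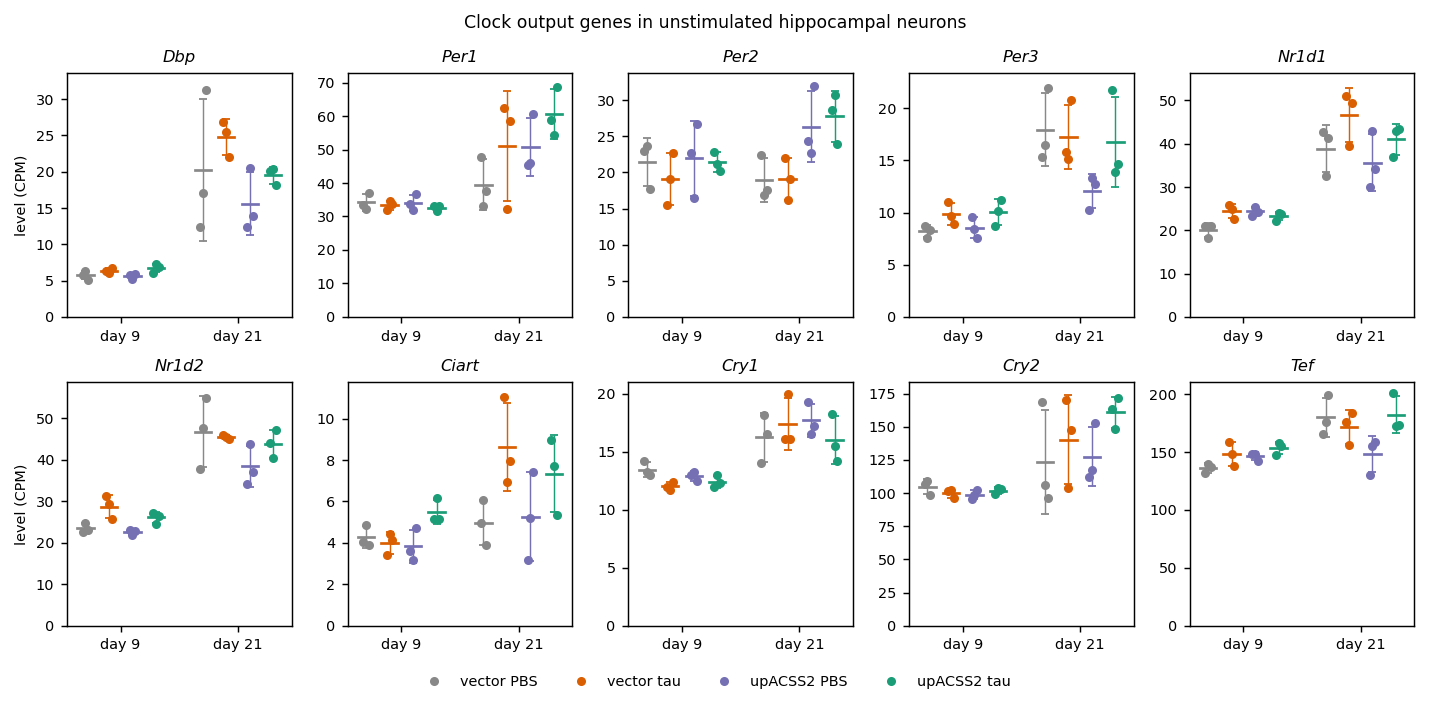
Level of each of the 10 genes in unstimulated hippocampal neurons (y axis, CPM) on days 9 and 21 of culture (x axis), with 1 point per library, a line at the mean and bars of 1 SD for 4 groups of 3 libraries per day. The 12 Dbp libraries of day 21 (12.4 to 31.3 CPM) all lie above those of day 9 (5.15 to 7.31 CPM), and Per2 overlaps between the days.

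The repressor genes rose by less. Nr1d1 went from 20.05 ± 1.54 to 38.9 ± 5.5 CPM with vector and PBS (log2 0.95), and by 0.93, 0.55 and 0.82 in the other arms. Nr1d2 went from 23.5 ± 1.19 to 46.8 ± 8.57 CPM (log2 1.00) and by 0.66, 0.76 and 0.75. Per3, at 8.23 ± 0.58 CPM on day 9, reached 17.9 ± 3.52 CPM (log2 1.12) and gained 0.80, 0.49 and 0.74 elsewhere. In each of these 3 genes the libraries of the days did not overlap in any arm. Cry1 gained 0.27 to 0.53. Its smallest change, with vector and PBS (adjusted p = 0.0409), was not called by DESeq2 and was lost without replicate 2 or 3 of either day in that arm or day 21 upACSS2 with tau replicate 2 (adjusted p up to 0.193). In the upACSS2 arms Per3 with PBS was lost without replicate 2 or 3 of either day (adjusted p up to 0.102), and Cry1 with tau without day 21 replicate 1 (adjusted p = 0.0916).

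Of the other members, Per1, Cry2, Ciart and Tef were called in some arms and not in others. Per1 rose by 0.62, 0.57 and 0.89 in vector with tau, upACSS2 with PBS and upACSS2 with tau, and differed by 0.20 ± 0.18 with vector and PBS (adjusted p = 0.334). The first of these was lost without day 21 replicate 1 of its arm (adjusted p = 0.0556) and the second without day 21 replicate 3 (adjusted p = 0.0649). Cry2 rose in both tau arms, by 0.49 and 0.66, the former lost without day 9 replicate 3 or day 21 replicate 1 or 3 (adjusted p up to 0.134). Ciart rose with vector and tau only, from 3.997 ± 0.533 to 8.65 ± 2.13 CPM (log2 1.12, adjusted p = 0.00151). Tef rose by 0.40 with vector and PBS and by 0.25 with upACSS2 and tau, the latter lost without replicate 1 of either day (adjusted p up to 0.171). Its call with vector and tau (0.21, adjusted p = 0.05 after rounding, below the threshold before it) was absent from DESeq2 and held on leaving out 1 library in only 5 of 24 cases. Per2 differed by -0.18, 0.01, 0.26 and 0.37. Differences between the arms in these changes were not tested.

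Genes of the wider clock changed in both directions over the same days. Of 17 listed, 9, 9, 9 and 10 rose and 4, 2, 4 and 3 fell in the arms in the order above. Among those that rose in every arm were the nuclear receptors Rora and Rorb, which activate Arntl, Hlf, the third PAR bZIP gene, the repressors Bhlhe40 and Bhlhe41, Clock, its paralogue Npas2, and Timeless. Hlf rose most like Dbp, from 4.92 to 17.9 CPM with vector and PBS (log2 1.88). Those that fell were Csnk1e and Btrc, which encode a kinase and a ubiquitin ligase subunit that act on PER proteins, in all 4 arms, Fbxl21 in 3 and Nfil3, the D-box repressor that opposes Dbp, in 2. The makeup of the cultures moved with the day as well. Astrocyte markers summed to 2099 to 2598 CPM on day 9 and 3209 to 18290 CPM on day 21, oligodendrocyte markers to at most 21.6 CPM on day 9 and 98.35 to 853.6 CPM on day 21, and 8 or 9 of 10 glucocorticoid-responsive genes, Fkbp5 and Tsc22d3 among them, and 7 or 8 of 12 activity genes rose. Their part in the members' changes was not tested. In bulk RNA more cells of a type and more RNA per cell cannot be told apart.

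Stimulation raised Per1, and edgeR called no other member in any arm. Per1 is the period gene known to respond to neuronal activity, and it rose in all 4 arms. Unstimulated day 21 libraries, scaled together with the stimulated ones, held 49.45, 34.2 and 39.35 CPM with vector and PBS, and stimulated ones 201.0, 178.4 and 201.4 CPM. Each stimulated library lay above each unstimulated one. The change was 2.24 ± 0.19 (log2, SE), or 4.73-fold (adjusted p = 5.28e-08).

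With vector and tau, Per1 was at 64.05, 33.55 and 60.1 CPM unstimulated and 143.8, 186.4 and 166.0 CPM stimulated (log2 1.65 ± 0.18, adjusted p = 5.19e-06). With upACSS2 and PBS it was at 47.5, 47.5 and 63.05 CPM and then 196.8, 206.6 and 208.6 CPM (1.95 ± 0.19, adjusted p = 4.77e-07). With upACSS2 and tau it went from 60.7, 56.3 and 71.4 to 164.4, 173.7 and 182.9 CPM (1.47 ± 0.18, adjusted p = 2.59e-05). Over the arms the 12 unstimulated libraries (33.55 to 71.4 CPM) and the 12 stimulated ones (143.8 to 208.6 CPM) did not overlap. Each of these calls held on leaving out any of the 24 libraries. Per length of transcript Per1 stood first of the 10 genes in stimulated neurons with vector and PBS, at 33.8 ± 2.53 CPM per kb, and had rank 5 in the unstimulated ones, at 7.02 ± 1.35. The 2 windows upstream of Per1 printed above each hold a CRE half-site, as do 20.81% of all windows.

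The member count, 1 of 10 in each arm, stands beside 7.14% of all 15108 genes called with vector and PBS, 2.83% with vector and tau, 3.7% with upACSS2 and PBS and 2.35% with upACSS2 and tau. All 12 activity genes, immediate early genes such as Fos, Arc and Npas4, rose in every arm, with medians of 4.91, 5.01, 4.72 and 4.47 on the log2 scale. Their summed level went from 224.5 to 544.6 CPM in the unstimulated to 7207 to 10020 CPM in the stimulated libraries. Of the 17 other clock genes, Nfil3 rose in all 4 arms, by 2.79, 2.23, 2.50 and 2.52. Bhlhe40 rose in both PBS arms (0.80 and 1.12) and Rora with upACSS2 and PBS (1.06). The stimulated and unstimulated libraries come from separate tables, so stimulation and whatever else set the tables apart cannot be told apart.

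**Figure D2:**
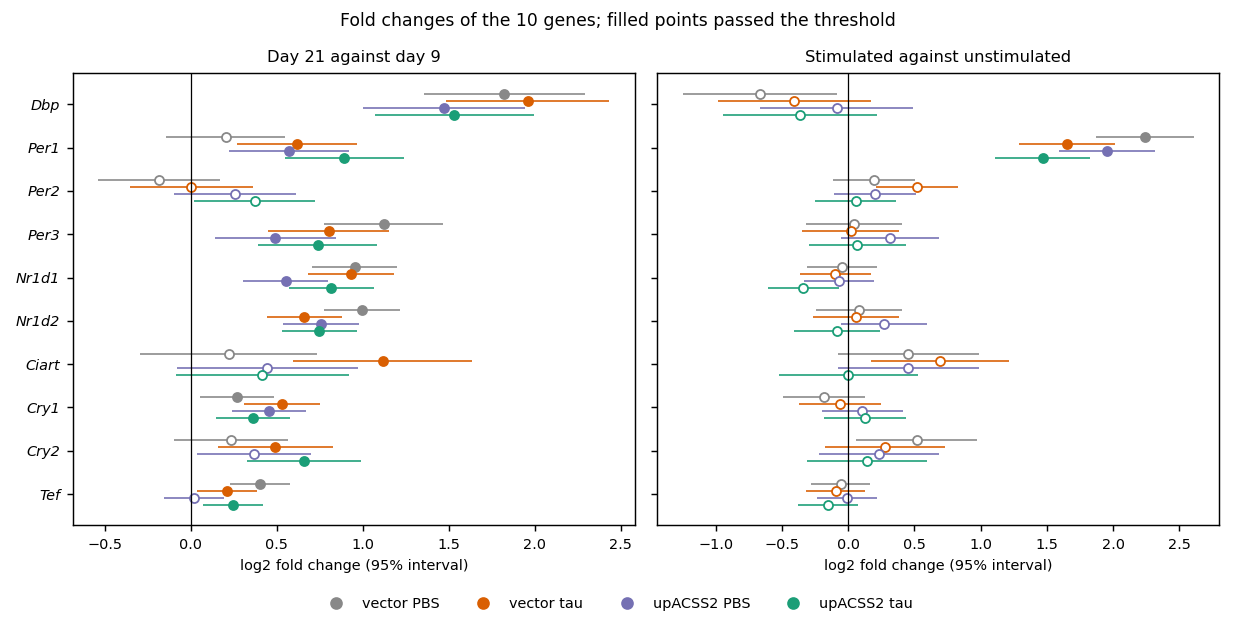
Log2 fold changes of the 10 genes (x axis, with 95% intervals from the SE) for day 21 against day 9 and for stimulated against unstimulated day 21 neurons, with 1 point per gene and arm, filled where the adjusted p was below 0.05. Dbp lies farthest right for the days (2.77-fold to 3.89-fold), and only Per1 has filled points for stimulation (1.47 to 2.24).

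Per2, the other period gene known to respond to acute stimuli, was not called on stimulation. Its largest difference was with vector and tau, where 22.7, 16.9 and 19.6 CPM became 26.1, 30.6 and 28.15 CPM. These libraries did not overlap, but edgeR did not call the difference of 0.52 ± 0.16 (adjusted p = 0.0956), while DESeq2 did (adjusted p = 0.0454). In the other arms Per2 differed by 0.20, 0.20 and 0.06. Dbp was lower by point estimate in all 4 arms, at -0.67, -0.41, -0.09 and -0.36, without a call. Leaving out the unstimulated vector with PBS replicate 1 brought the first of these to -0.93 with a call (adjusted p = 0.0345) and Cry2 to 0.80 with a call (adjusted p = 0.0292). Ciart with vector and tau went from 11.3, 7.22 and 8.19 CPM to 14.1, 13.7 and 15.6 CPM, without overlap (0.69 ± 0.26, adjusted p = 0.202). Nr1d1 with upACSS2 and tau went from 38.2, 44.35 and 45.0 CPM to 33.3, 37.8 and 29.8 CPM, also without overlap (-0.34 ± 0.14, adjusted p = 0.331). Neither was called. The intervals of Per3, Nr1d2, Cry1 and Tef included 0 in every arm.

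Tau against PBS was marked by Ciart, the gene of the repressor CHRONO, in stimulated vector neurons. With PBS its libraries held 5.69, 7.49 and 7.58 CPM, and with tau 13.9, 13.5 and 15.4 CPM. The tau libraries lay at about the same level, all above the PBS libraries. The difference was 1.04 ± 0.20 (log2, SE; 2.05-fold, adjusted p = 0.0297), and Ciart was the only member called in this comparison, where 3.02% of 14939 genes were called. It had the highest fold change of the 10 there. DESeq2 called it as well. The edgeR call was lost with only these 2 groups in the fit, and on leaving out vector with tau replicate 1 or 3 or vector with PBS replicate 1 or 3, with values of 0.92 to 1.11 and adjusted p up to 0.151. Ciart is a low transcript, with 124 to 358 counts per stimulated library.

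With upACSS2 Ciart was at 5.41, 8.73 and 7.88 CPM with PBS and 7.85, 8.88 and 5.81 CPM with tau. These groups overlapped, and the difference was 0.04 (log2, 95% interval -0.35 to 0.42). No member was called there by edgeR or DESeq2, 1 (Per1, -0.22) had an unadjusted p below 0.05, and 0.208% of all genes were called. Of all genes 2132 had an unadjusted p below 0.05. Compared with vector in tau, a contrast that shares the vector with tau libraries, upACSS2 neurons had less Ciart by -0.93 ± 0.20 (adjusted p = 0.0518). This missed the threshold in edgeR. It passed with the replicate number as a block over the 12 stimulated libraries (adjusted p = 0.0328) and in DESeq2 (adjusted p = 0.000989). Same-numbered libraries had r of 0.111 to 0.359 in this comparison, and as low as -0.115 for tau with upACSS2 in the same fit. In that comparison edgeR called 0 of 10 members and 0.937% of all genes. An unadjusted p below 0.05 was found for 2 members, Ciart and Nr1d1 (-0.42), and these were the 2 that DESeq2 called. Such a p was found for 3047 of all 14939 genes. The test of the difference itself, the interaction of tau and virus, gave -1.004 ± 0.279 for Ciart (p = 0.00356 and adjusted p = 0.233 in edgeR), so the tau effect was not shown to depend on the virus. Per1, already raised by stimulation, was lower with tau by -0.22 with either virus, without a call (adjusted p = 0.174 and 0.313). Beside the Ciart difference in vector neurons, 2 of 6 astrocyte genes (Aldh1l1 and Gfap), Fkbp5 and Egr3 were lower with tau, and the astrocyte markers summed to 2740 to 4225 CPM with tau and 5589 to 8942 CPM with PBS. Their part in the result was not tested.

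In unstimulated day 21 neurons Ciart differed the same way with vector, at 4.96, 6.08 and 3.92 CPM with PBS and 11.03, 6.94 and 7.97 CPM with tau, without overlap. That difference of 0.79 ± 0.31 was not called (adjusted p = 0.53). With upACSS2 it was 0.49 (adjusted p = 0.776). On day 9 Ciart differed by -0.08 with vector and by 0.50 with upACSS2, where 3.61, 3.17 and 4.72 CPM with PBS stood against 5.14, 6.18 and 5.16 CPM with tau (adjusted p = 0.19, and called without the filter on low counts, adjusted p = 0.0407). In the culture without virus Ciart stood at 5.39 ± 2.51 CPM with tau (n = 4) and 6.14 ± 0.856 CPM with PBS (n = 3), and these overlapped. Over these 7 neuron comparisons Ciart was higher with tau in 5 by point estimate, with a call in 1.

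**Figure D3:**
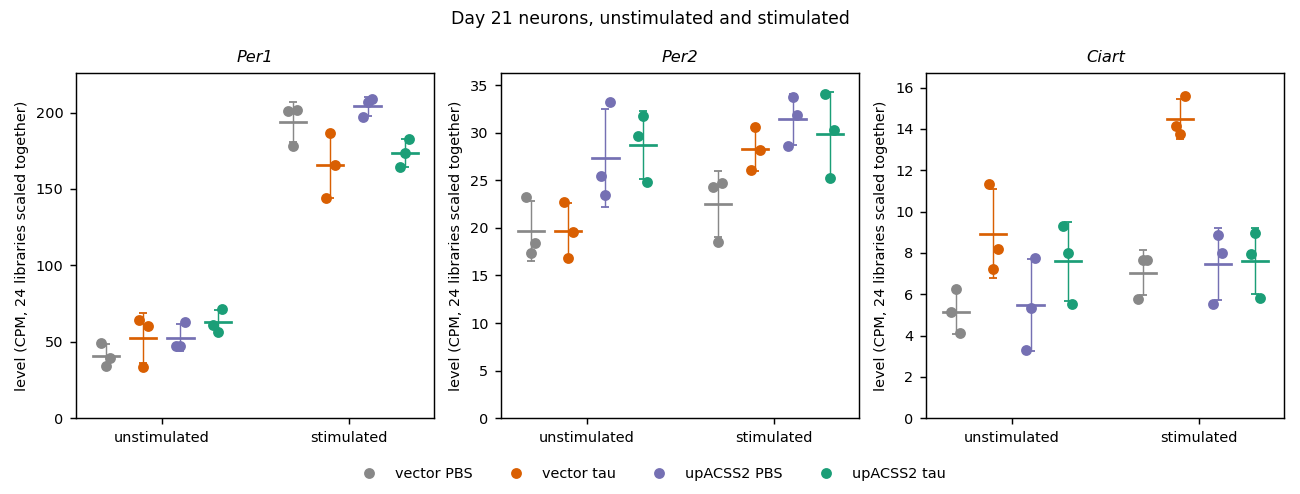
Levels of Per1, Per2 and Ciart (y axis, CPM with 24 libraries scaled together) in unstimulated and stimulated day 21 neurons, with 1 point per library, a line at the mean and bars of 1 SD for 8 groups of 3. Per1 is above 143 CPM in every stimulated library, and Ciart stands apart in the stimulated vector with tau libraries.

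On day 9, a few days after the virus and the tau, the REV-ERB genes showed small differences. Nr1d1 was at 23.3, 25.5 and 24.3 CPM with upACSS2 and 21.0, 18.3 and 20.9 CPM with vector in PBS. These groups did not overlap, and the difference of 0.26 ± 0.07 was called (adjusted p = 0.0231), as 1 of 10 members among 10.2% of 14022 genes called. With tau in vector neurons Nr1d1 was at 25.95, 24.8 and 22.6 CPM and Nr1d2 at 31.15, 29.3 and 25.6 CPM, against 22.6, 24.85 and 23.15 CPM for Nr1d2 with PBS. The differences from PBS were 0.28 ± 0.07 (adjusted p = 0.0338) and 0.29 ± 0.07 (adjusted p = 0.0246), 2 of 10 members where 4.28% of genes were called. Each of these 3 calls rests on the vector with PBS libraries in common. The tau calls were lost with only the groups compared, and all 3 calls were lost with all 24 unstimulated libraries in the fit. The common coefficient of variation between libraries that edgeR estimated was 0.042 in the day 9 fit and 0.135 with all 24 libraries. On leaving out 1 library, the upACSS2 call was lost without upACSS2 with PBS replicate 2 or 3 or vector with PBS replicate 1 or 2 (adjusted p up to 0.0974). Both tau calls were lost without vector with tau replicate 1 or 2 or vector with PBS replicate 1, and that of Nr1d1 also without vector with PBS replicate 2 (adjusted p up to 0.166). In the same tau comparison 6 of 12 activity genes fell (Fosb, Nr4a1, Egr3, Fos, Egr1 and Npas4), as did Nfil3, and the part of activity in the members' result was not tested.

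The other day 9 comparisons called no member. For upACSS2 against vector in tau, edgeR called 0 of 10 with 0.692% of genes called, 1 member (Ciart, 0.44) had an unadjusted p below 0.05, and DESeq2 called 0. For tau against PBS with upACSS2, edgeR called 0 with 0.349% of genes called, 3 members (Dbp, Nr1d2 and Ciart) had an unadjusted p below 0.05, and DESeq2 called 0. Of all 14022 genes, 1761 in the former comparison and 1269 in the latter had an unadjusted p below 0.05. The change of the tau effect with the virus was -0.34 ± 0.10 for Nr1d1 (adjusted p = 0.0902), the largest of the members on day 9 relative to its error.

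Raised Acss2 left the 10 genes without a call in day 21 neurons at rest. The common coefficient of variation between libraries was 0.189 in this fit and 0.042 on day 9. A missing call on day 21 therefore does not mean a smaller difference than on day 9. In PBS edgeR called 0 members and 0.0137% of genes, and in tau 0 members and 0.0273%. Unadjusted p-values below 0.05 were found for 3 members (Per2, Per3 and Tef) and 1 member (Per2), and DESeq2 called 0 in both. Among all 14639 genes an unadjusted p below 0.05 was found for 2431 in PBS and 1564 in tau. Tau against PBS on the same day gave 0 members and 0% of genes with either virus, with unadjusted p-values below 0.05 for 1 member with vector (Ciart) and 2 with upACSS2 (Per3 and Tef), and DESeq2 called 0 members. Over all genes the unadjusted p was below 0.05 for 1361 and 931, and DESeq2 called 3 and 11.

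Per2 was the member whose level was higher with upACSS2 in several comparisons. On day 21 in PBS it was at 24.3, 22.7 and 31.9 CPM with upACSS2 and 22.5, 16.8 and 17.6 CPM with vector. In tau it was at 28.7, 30.7 and 23.9 CPM against 22.05, 16.2 and 19.1 CPM. In stimulated neurons with PBS it was at 28.0, 33.3 and 31.5 CPM against 24.0, 18.1 and 24.4 CPM. The virus groups did not overlap in any of these, but how many of all genes separate in this way was not counted. The differences were 0.47 ± 0.17, 0.55 ± 0.17 and 0.48 ± 0.14, none past the threshold in edgeR (adjusted p = 0.232, 0.311 and 0.145). DESeq2 called the last (adjusted p = 0.0457). In stimulated neurons with tau Per2 differed by 0.08, and on day 9 by 0.03 in PBS and 0.17 in tau. For upACSS2 against vector in stimulated PBS neurons edgeR called 0 of 10 members and 0.208% of genes, with 2 members (Per2 and Cry1) at an unadjusted p below 0.05 and 1 called by DESeq2. There 2375 of all genes had an unadjusted p below 0.05.

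Per3 moved the other way by point estimate in day 21 neurons with PBS, with 10.2, 13.3 and 12.7 CPM with upACSS2 and 15.4, 16.5 and 21.95 CPM with vector. The groups did not overlap. The difference of -0.59 ± 0.21 was not called (adjusted p = 0.227), but with all 24 unstimulated libraries in the fit it was (-0.58, adjusted p = 0.0383), as was Tef (-0.28, adjusted p = 0.0459). In tau, Per3 differed by -0.03.

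The culture without virus had more Dbp, Per3 and Nr1d1 than the virus-treated cultures of the same age, though the tables were scaled apart. Dbp lay between 51.7 and 83.9 CPM there. Tau against PBS gave 0 called members in edgeR, 0% of 16341 genes called, 1 member (Nr1d2) with an unadjusted p below 0.05 and 0 members in DESeq2. Over all genes 2272 had an unadjusted p below 0.05 and DESeq2 called 308. Nr1d2 was at 58.7, 58.6, 60.75 and 50.7 CPM with tau and at 75.7, 73.0 and 67.5 CPM with PBS, without overlap (log2 -0.33 ± 0.10, adjusted p = 0.312). PBS replicate 3 stood apart from the other 6 libraries, with the most Per1 (106.7 CPM), Cry2 (187.2 CPM) and Nr1d1 (97.7 CPM) and the least Per3 (22.5 CPM), beside 1939 CPM of astrocyte markers against 6193 to 11660 CPM.

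In the mice no member was called between virus groups. For aged mice edgeR called 0 members, none had an unadjusted p below 0.05, and DESeq2 called 0. In those mice edgeR called no gene at all (0% of 15157), 846 had an unadjusted p below 0.05, and DESeq2 called 0. The 10 fold changes lay between -0.04 and 0.06, and the 95% interval for Dbp was -0.19 to 0.14. In vector mice Dbp ran from 43.5 to 61.8 CPM and in mice labelled upACSS2 from 37.05 to 62.0 CPM, with medians of 47.4 and 50.7 CPM.

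In mice of 10 months edgeR called 0 members and 0% of 13629 genes, with 3 members (Per1, Per2 and Nr1d1) at an unadjusted p below 0.05 and 0 called by DESeq2. Over all genes 1204 had an unadjusted p below 0.05 and DESeq2 called 3. Per2 was at 24.4 to 28.9 CPM in the 6 mice labelled upACSS2 and at 15.8 to 27.2 CPM in the 5 vector mice, where replicate 5 alone reached the upACSS2 range. Its difference was 0.41 ± 0.12 (adjusted p = 0.518), for Per1 0.29 ± 0.12 (adjusted p = 0.544) and for Nr1d1 0.25 ± 0.10 (adjusted p = 0.544). Of the 10 members 9 had a positive difference, as had 11 of the 12 activity genes, with a median of 0.30. The part of activity in these values was not tested.

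In PS19 mice 1 month after the virus edgeR called 0 members and 0% of 15850 genes, no member had an unadjusted p below 0.05, and DESeq2 called 0. All 10 differences were positive, from 0.05 (Cry1) to 0.40 (Ciart), where the tissue labels differ too. Nr1d2 did not overlap, at 85.1 to 101.0 CPM in mice labelled upACSS2 and 72.7 to 84.8 CPM in vector mice (log2 0.22 ± 0.12, adjusted p = 0.964). At 6 months edgeR again called 0 members, 0% of genes, no member at an unadjusted p below 0.05 and DESeq2 0, with differences between -0.21 and 0.14. Over all genes the unadjusted p was below 0.05 for 463 at 1 month and 2237 at 6 months, and DESeq2 called 1 and 128. From 1 to 6 months after the virus edgeR called 0 members with vector, where 7.46% of genes were called, and 0 with upACSS2, where 0.0442% were. An unadjusted p below 0.05 was found for no member with vector and for 1 with upACSS2 (Tef, -0.29 ± 0.10), and DESeq2 called 0 in both. Such a p was found for 3984 of all genes with vector and 2166 with upACSS2. Between the upACSS2 groups the tissue label differs too, so time and tissue cannot be told apart there, and 1 of the 5 mice of 1 month stood apart in Tef (482.9 CPM against 323.1 to 362.5 CPM).

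Between mice of a group Ciart was among the most variable members in each of the 3 tables, and Tef was the least variable. Ciart also had the fewest counts, 70 to 170 in aged mice, 17 to 71 at 10 months and 22 to 115 in PS19 mice. The part of counting noise in its spread was not tested. The highest mouse of a table stood 1.23-fold to 2.61-fold above the lowest. In the aged mice the SD of log2 CPM within groups was 0.325 for Per3 and Ciart, 0.251 for Nr1d1, 0.235 for Per1 and 0.217 for Dbp, against a median of 0.184 over all genes, and only 0.086 for Cry2 and 0.073 for Tef. Dbp stood at percentile 59.0 of all genes in aged mice, 58.1 in mice of 10 months and 60.5 in PS19 mice. Its range was 37.05 to 62.0 CPM in aged mice, 39.6 to 60.1 CPM at 10 months and 27.5 to 55.3 CPM in PS19 mice, a ratio of 1.67, 1.52 and 2.01. Dbp is among the genes with the widest daily swing in most tissues. Its spread between these mice was near the median of all genes, which were not matched to Dbp in level. The part of the time of dissection in this spread was not tested.

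Whether the genes swung together from mouse to mouse was tested against Dbp, with group means removed. After adjustment Nr1d1 went with Dbp by both measures in the 24 aged mice and by Spearman's rho alone in the PS19 mice. At 10 months it did so by neither, and differences between the sets of mice were not tested. Over the 24 aged mice Pearson's r was 0.697 and Spearman's rho 0.720 (permutation p = 0.00012 and 0.00015, adjusted over 30 relations to 0.0036 and 0.0045). Among the 18 mice with replicate numbers 4 to 12, r was 0.700 and rho 0.676 (permutation p = 0.0021 and 0.00458). With these 18 in place of the 24 the adjusted values were 0.063 and 0.0666, and r without the 2 mice farthest in Dbp was 0.475. Over the 20 PS19 mice r was 0.701 and rho 0.707 (permutation p = 0.0042 and 0.0018, adjusted 0.063 and 0.027 in the first family). In the family with the 18 aged mice the adjusted values were 0.063 and 0.054. Without the 2 farthest mice r was 0.554. At 10 months, with 11 mice, r was 0.132 and rho 0.091 (permutation p = 0.726 and 0.817, adjusted 0.859 and 0.893).

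The other members were less even. Nr1d2 had r of 0.643 at 10 months and 0.661 in PS19 mice (adjusted permutation p = 0.16 and 0.116) but 0.179 in the 18 aged mice. Ciart had r of 0.365, 0.664 and 0.481 in the 18 aged, the 10-month and the PS19 mice, and Tef 0.101, 0.697 and 0.532, none below an adjusted permutation p of 0.05. Per2 had r of -0.286, -0.382 and -0.091 and Per3 of -0.067, 0.324 and -0.080. Arntl, which peaks opposite to Dbp in a running clock, had r of -0.387, -0.094 and -0.061. With the 24 aged mice Dbp and Nr1d1 was the only relation of the 30 with an adjusted permutation p below 0.05 by both measures. With the 18 no relation was below it by either measure.

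**Figure D4:**
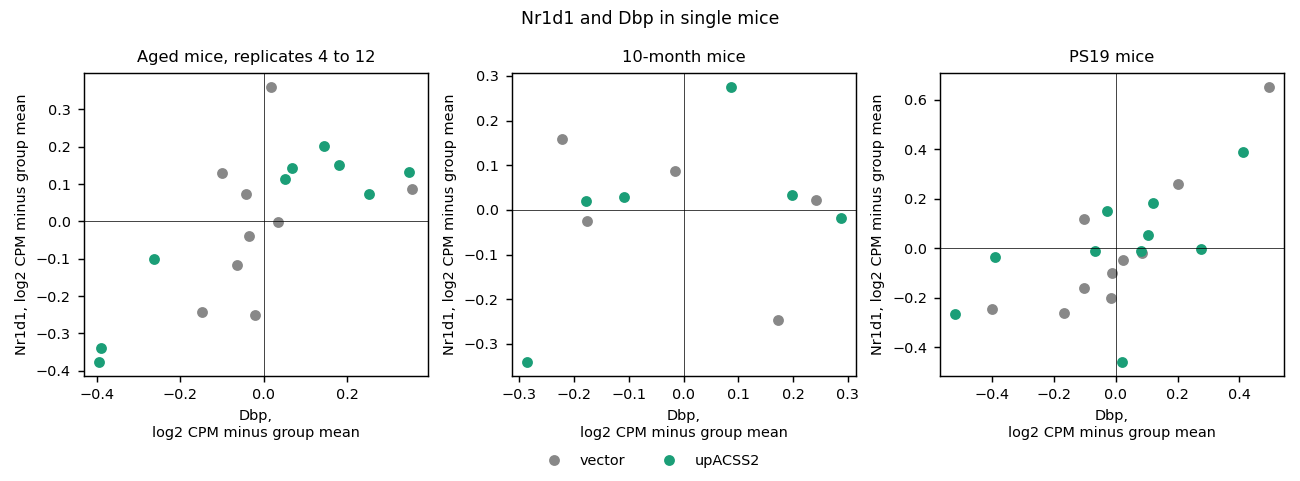
Nr1d1 (y axis) against Dbp (x axis) in single mice, both as log2 CPM minus the group mean, for 18 aged mice (replicates 4 to 12), 11 mice of 10 months and 20 PS19 mice, with 1 point per mouse and colours for the virus label. Points rise to the right in the aged (r 0.700) and PS19 mice (r 0.701) and not in the 10-month mice (r 0.132).

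The same question put to every gene, with Dbp as a term in edgeR's fit, gave the background. In aged mice 0.112% of 15156 genes followed Dbp past the threshold, at 10 months 0% of 13628 (556 at an unadjusted p below 0.05) and in PS19 mice 0.00631% of 15849. No member was among them in edgeR. Unadjusted p-values below 0.05 were found in aged mice for Nr1d1 (slope 0.83 ± 0.18 log2 per log2 of Dbp, adjusted p = 0.056) and Ciart (0.70 ± 0.29), at 10 months for Nr1d2 (0.44 ± 0.20) and Ciart (1.17 ± 0.48), and in PS19 mice for Nr1d1 (0.71 ± 0.17, adjusted p = 0.175), Nr1d2 (0.49 ± 0.14), Ciart (0.55 ± 0.26) and Tef (0.32 ± 0.13). Of all genes, 1985 in aged mice and 1613 in PS19 mice had an unadjusted p below 0.05. DESeq2 was not run for these slopes. With a term for replicates 1 to 3 against 4 to 12 Nr1d1 was called in aged mice (slope 0.76, adjusted p = 0.0132), where 1.43% of all genes were, and within replicates 4 to 12 it was not (0.65, adjusted p = 0.124). In PS19 mice the Nr1d1 slope fell to 0.48 (adjusted p = 0.512) without vector replicate 3 of 6 months. Of 13614 genes tested in all 3 tables, 0 followed Dbp past the threshold with the same sign in all 3, so no gene met the rule for being most like Dbp. By unadjusted p below 0.05, 19 did, and Ciart was the only member among them. Thsd4 (slopes -1.01, -1.08 and -1.49) and Nrep (1.18, 1.05 and 0.95), named after their values were seen, had the smallest largest p of the 19.

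In aged mice Per3 separated the replicates numbered 1 to 3 from those numbered 4 to 12, a split known from earlier work on these data and not given in the labels. The 6 mice of the first set had 31.9 to 39.5 CPM and the 18 of the second 19.0 to 30.2 CPM, without overlap. Per3 was the only member of the 10 without overlap, and 6.59% of all 15157 genes showed none. Per1 was at 55.0 to 67.7 CPM (median 60.5) in the first set and 39.1 to 64.7 CPM (median 49.8) in the second, and Per2 at 25.2 to 32.45 (median 28.5) and 21.4 to 28.7 CPM (median 23.3). Dbp, by contrast, was at 42.9 to 60.3 CPM and 37.05 to 62.0 CPM. Choroid plexus markers summed to 22.7 to 282.8 CPM in the first set and 56.15 to 2483 CPM in the second, and their part in the split was not tested. With Per3 in place of Dbp, 5 members (Nr1d1, Per1, Ciart, Per2 and Cry2) followed it in aged mice, where 36.5% of all genes did, and 2 (Per2 and Cry2) in PS19 mice, where 7.1% did.

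Per1 and the summed activity genes were compared across the mice after the data had been seen. The share of all genes that go with the activity list was not counted, so these values do not set the members apart from other genes. Among the 18 aged mice r between Per1 and the summed activity list was 0.828 and rho 0.756 (permutation p = 0.00016 and 0.00092, adjusted over 30 relations to 0.00255 and 0.0276). In 3 of these mice, vector replicate 6 and those labelled upACSS2 replicates 10 and 12, the activity list stood at 1584, 1280 and 1336 CPM, against 588.3 to 918.2 CPM in the other 15. The same 3 had the highest Per1 of the 18, at 64.7, 63.5 and 63.9 CPM, with the next at 54.8 CPM. Without the 2 mice farthest in activity r was 0.684, and among the 15 it was 0.501, with no p computed, so the pooled value rests in part on the 3 mice.

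At 10 months r was 0.828 and rho 0.827 (permutation p = 0.0231 and 0.00472, adjusted 0.0716 and 0.0354), and 0.670 without the 2 farthest mice. Vector replicate 5 had both the most Per1 (90.4 CPM) and the most activity list (1539 CPM). In PS19 mice r was 0.634 and rho 0.517 (permutation p = 0.00479 and 0.0311, adjusted 0.0287 and 0.116). Cry2 (r 0.774) and Nr1d1 (r 0.703) also went with activity in the 18 aged mice, with adjusted permutation p of 0.00255 and 0.0132 for r and 0.0277 and 0.0288 for rho, and not in PS19 mice (r 0.352 and 0.20). At 10 months Cry2 had r of 0.504 and rho of 0.791, with adjusted permutation p of 0.208 and 0.0491, and Nr1d1 had r of 0.07. Ciart went with activity in the 18 aged mice by r alone (r 0.751 and rho 0.579, adjusted permutation p = 0.0132 and 0.1). Its r was -0.574 at 10 months and 0.145 in PS19 mice. Dbp had r of 0.353, -0.452 and 0.330, none below an adjusted permutation p of 0.05. Per1 had the highest r of the members in the 18 aged and the PS19 mice, and Per2 (r 0.831) had it at 10 months. This is a description and not a test.

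**Figure D5:**
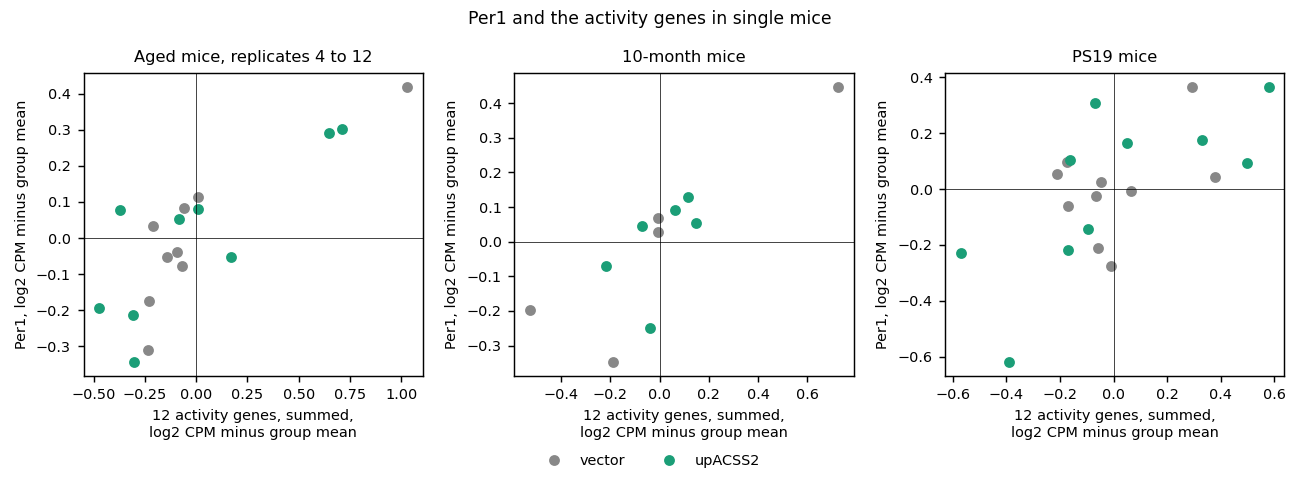
Per1 (y axis) against the summed level of 12 activity genes (x axis) in single mice, both as log2 CPM minus the group mean, in 18 aged mice (replicates 4 to 12), 11 mice of 10 months and 20 PS19 mice, with 1 point per mouse and colours for the virus label. The 3 aged mice at the upper right are those with 1280 to 1584 CPM of the activity genes, and r is 0.828, 0.828 and 0.634.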

How the data were processed

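RNA was sequenced from 98 samples in 22 groups. Per the file headers, the 6 tables that the authors deposited hold raw, unnormalized counts for each gene symbol. STAR, featureCounts, HTSeq, DESeq2 and the build mm10 are named in the submitters' processing notes, without roles. Strand setting and annotation are not given in the sources used here. A row without a gene name, 6.13 to 8.74% of counts in the culture without virus, was left out.

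Counts were filtered with filterByExpr, TMM-scaled within a table (day 21 unstimulated and stimulated libraries together for stimulation) and tested with edgeR 4.0.16 (R 4.3.3, two-sided quasi-likelihood test, Benjamini-Hochberg adjustment over all genes, threshold 0.05). Each fit held the groups of 1 day, table or stimulation state; the days were compared over all 24 unstimulated libraries. DESeq2 1.42.0 was run beside it, as were fits with RLE scaling, without the filter, with other samples, with a replicate block and without each library in turn. Scripts were tested on simulated data. Replicate numbers were taken to pair libraries where every r between same-numbered libraries was over 0.1. This held in the culture without virus and for stimulation with upACSS2 and PBS. In stimulated neurons it held for the virus effect within tau and the tau effect within vector. Correlations used log2 CPM (prior count 2) minus group means and 100000 permutations within groups. No pair of libraries within a group agreed within sampling noise; other pairs were not compared.

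The members and lists were chosen with earlier results of these data known. All 10 members are named in every comparison; of 17 other clock genes, those called in a comparison described, except 1 item not reported here; as most like Dbp, genes that follow it past the threshold with one sign in all 3 mouse tables.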

Additional observations from a re-analysis of the deposited data

Results flagged for a closer look

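Within groups of 4 to 6 mice or libraries, 70 checks were made for a sample far from the rest of its group, and 3 were found where chance gives 3.5. Both Per2 and Nr1d1 stood apart in the same animal, the PS19 vector mouse replicate 3 at 6 months. Its Per2 level was 15.89 CPM, against 28.59 to 32.6 CPM in the other 4 mice. Its Nr1d1 level was 79.79 CPM, against 42.89 to 49.2 CPM. The same mouse had the highest Dbp (51.2 CPM) and Nr1d2 (114.3 CPM) of its group, beside the most astrocyte markers (9739 CPM) and microglia markers (769.8 CPM) and the fewest neuronal markers (5506 CPM), whose part in these values was not tested. Tef stood apart in the PS19 mouse labelled upACSS2 replicate 3 at 1 month, at 482.9 CPM against 323.1 to 362.5 CPM in the other 4.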

How the results depend on the processing

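No called value changed sign under an alternative, but at 10 months uncalled relations to Dbp did. There the Nr1d1 slope of 0.09 became -0.48 in vector mice only and -0.22 without upACSS2 replicate 1. Without the 2 mice farthest in Dbp, r at 10 months went from 0.132 to -0.223 for Nr1d1, from 0.137 to -0.589 for Cry2 and from 0.324 to -0.103 for Per3. The number of members called for upACSS2 against vector in unstimulated neurons was 1 (Nr1d1 on day 9) and became 2 with all 24 libraries in the fit, which lost Nr1d1 and gained Per3 and Tef on day 21, and 0 to 1 on leaving out 1 library. For tau against PBS in unstimulated neurons it was 2 and became 0 with only the groups compared, 0 with all 24 libraries and 0 to 3 on leaving out 1 library. For upACSS2 against vector in stimulated neurons it was 0 and became 1 without the filter, 1 with the replicate block, 3 in DESeq2 and 0 to 2 on leaving out 1 library. For tau against PBS in stimulated neurons it was 1 and became 0 with only the groups compared and 0 to 1 on leaving out 1 library. Members that follow Dbp in aged mice went from 0 to 5 with Per3 in its place and to 1 with a term for replicates 1 to 3, and in PS19 mice from 0 to 2 with Per3. The cause was not tested. The counts for the days (29), for stimulation (4), for the culture without virus (0) and for virus or age in mice (0) stayed within 1.5 times under every alternative run. The replicate block otherwise changed a member's call only for Tef between the days with vector and tau, where the numbers do not pair the libraries. Depth limits Ciart most, with as few as 17 counts in a mouse of 10 months and 22 in a PS19 mouse.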
